A study of Homo sapiens with 4 samples.

Results

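The clustered histone genes were followed across 4 expression arrays of tumour-derived gastric carcinoma cells. Members were taken as every row of the array table whose single gene symbol starts with HIST1H, HIST2H, HIST3H or HIST4H, or is the current name of such a gene (H2BC21, for example, was HIST2H2BE). The rule found 59 genes among 18417 genes with a row of their own, 58 of them protein coding and 1 a pseudogene, H2BC19P. They comprised 6 linker histone H1 genes, 14 H2A, 17 H2B, 9 H3 and 13 H4 genes. Each member had a single row of its own, so no choice among probe sets was needed.

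SNU-16, a human gastric carcinoma cell line, was grown in the stomach wall of BALB/c nude mice, which lack T cells. Tumour cells were recovered from the ovary and from the stomach wall (round 1), cultured for 7 days and implanted again, ovary-derived cells giving an ovarian metastasis and stomach-derived cells a stomach tumour (round 2). The 4 samples, with 1 array each, were cultured cells of the ovarian metastasis of round 2 (16OO), the ovarian metastasis of round 1 (16O), the stomach tumour of round 2 (16SS) and the stomach tumour of round 1 (16S). All 4 carry the same cell line background with no other treatment named, the round 2 cells descend from the round 1 cells of the same site, and each site is a single lineage, so replicate spread within a site is that between successive passages and may in part be technical.

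The labels of round 2 contradict themselves in part: for the stomach sample the cultured site is given as ovary, and for the ovary sample the last sentence puts the tumour in the stomach. The titles and tissue labels were followed, and an exchange of the round 2 samples would alter every comparison of sites below and the difference between rounds at each site. The mean difference between rounds would stay as it is. All 5 epithelial markers (EPCAM, CDH1, KRT8, KRT18 and KRT19) had mean values between 11.57 and 12.52 on the log2 scale, and FGFR2, MYC and CD44, genes of loci amplified in SNU-16, lay between 12.27 and 13.34. Markers of leukocytes, fibroblasts, endothelium and ovarian follicle had mean values between 3.87 and 7.95. Host cells would be mouse cells, so these values of human genes do not settle whether any were present. Array medians over 33297 rows lay between 6.80 and 6.84, and having only 4 arrays limits how precise any value is.

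Histones are the proteins around which DNA is wound. Pairs of H2A, H2B, H3 and H4 molecules form the core of the nucleosome, and H1 sits on the linker DNA between nucleosomes. Most clustered histone genes are transcribed in S phase, when new DNA is packaged, under the coactivator NPAT, and their mRNAs end in a stem-loop bound by SLBP in place of a poly(A) tail. Some of them also give polyadenylated transcripts, and a few are known for expression in testis. Within 1 class, most genes of H2A, H2B, H3 or H4 encode nearly the same protein, while the H1 proteins differ more. Probes designed for a gene can carry signal from relatives of similar sequence, so the assignment of a value to a single member is uncertain. The sources used here do not state the priming of cDNA synthesis, so how far transcripts without a poly(A) tail were captured is not known.

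Promoter sequences were available for 53 of the 59 members, in 55 windows, from RefSeq (GRCh38.p14). The windows shown are the 250 bases before the transcription start, 5′ to 3′ on the strand of the gene, of 6 members whose direction of difference between sites, between rounds or in both was the same in each pair of arrays. Capitals mark, on either strand, the CCAAT box (CCAAT or ATTGG), the TATA box (TATAAA or TTTATA) and the octamer motif (ATTTGCAT or ATGCAAAT), which is the binding sequence of OCT1 in H2B promoters. H4C6 and H2BC21 had the higher values in round 2, H4C2 and H3C7 the higher values in ovary and the lower ones in round 2, H2BC12 the lower values in ovary, and H2AC14 the higher values in ovary.
H4C6 (chr6:26240143-26240392, plus strand): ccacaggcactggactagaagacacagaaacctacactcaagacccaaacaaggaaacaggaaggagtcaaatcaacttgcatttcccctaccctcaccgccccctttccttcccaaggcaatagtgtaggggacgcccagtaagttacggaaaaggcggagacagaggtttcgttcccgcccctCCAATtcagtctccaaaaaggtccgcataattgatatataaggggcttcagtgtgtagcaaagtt
H2BC21 (chr1:149886683-149886932, minus strand): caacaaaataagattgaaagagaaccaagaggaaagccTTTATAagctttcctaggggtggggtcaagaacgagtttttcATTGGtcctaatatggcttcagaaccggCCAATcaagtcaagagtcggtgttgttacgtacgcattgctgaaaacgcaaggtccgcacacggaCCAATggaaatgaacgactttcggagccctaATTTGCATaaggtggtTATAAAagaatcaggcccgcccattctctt
H4C2 (chr6:26027284-26027533, minus strand): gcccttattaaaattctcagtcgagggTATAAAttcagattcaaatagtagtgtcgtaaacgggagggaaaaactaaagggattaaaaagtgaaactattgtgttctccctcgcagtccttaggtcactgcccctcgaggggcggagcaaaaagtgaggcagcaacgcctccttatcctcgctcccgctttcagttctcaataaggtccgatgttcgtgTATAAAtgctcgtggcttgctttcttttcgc
H3C7 (chr6:26250636-26250885, minus strand): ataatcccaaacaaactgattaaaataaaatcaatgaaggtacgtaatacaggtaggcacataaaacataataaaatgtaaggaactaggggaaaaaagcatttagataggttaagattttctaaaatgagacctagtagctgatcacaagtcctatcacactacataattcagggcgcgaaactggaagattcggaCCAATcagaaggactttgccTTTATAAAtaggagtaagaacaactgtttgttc
H2BC12 (chr6:27146859-27147108, minus strand): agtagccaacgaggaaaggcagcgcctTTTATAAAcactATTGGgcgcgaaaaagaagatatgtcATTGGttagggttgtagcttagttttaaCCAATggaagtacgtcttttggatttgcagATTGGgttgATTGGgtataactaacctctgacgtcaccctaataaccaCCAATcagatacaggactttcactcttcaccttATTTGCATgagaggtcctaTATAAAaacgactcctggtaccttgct
H2AC14 (chr6:27814778-27815027, minus strand): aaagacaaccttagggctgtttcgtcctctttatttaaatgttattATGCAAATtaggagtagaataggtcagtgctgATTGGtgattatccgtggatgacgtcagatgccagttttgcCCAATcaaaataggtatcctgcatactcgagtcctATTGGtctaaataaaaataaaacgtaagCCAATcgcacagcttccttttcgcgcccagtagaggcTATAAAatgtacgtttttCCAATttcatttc

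The letters differ by class. The octamer stood in the H2B windows and the H2A window shown, with no match in the H4 or H3 windows. In H3C7 and H2BC12 a TATA match on 1 strand overlaps a match on the other, printed as TTTATAAA. H2BC21 and H2AC14 lie head to head with H2AC20 and H2BC14, so most of the letters printed for them also precede the partner gene. Over all member windows, 85.5% held a CCAAT box, 67.3% a TATA box and 43.6% an octamer, against 32.0%, 10.7% and 1.63% of 35116 promoter windows of the same length. The octamer was found in 10 of 13 H2A and 14 of 18 H2B windows and in none of the 6 H1, 7 H3 and 11 H4 windows. These windows are not all separate. In 9 head-to-head pairs of an H2A and an H2B gene the windows share most letters, so the same octamer can count for both classes. H2BC5 and H2BC12 each entered with overlapping windows of their own. All windows of H1, H2A, H2B and H3 held a CCAAT box, against 3 of 11 of H4. A match is a description of the letters, and binding was not measured.

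Histone transcripts gave some of the high values on these arrays. The highest mean of each class belonged to H1-4 (13.34), H2AC20 (11.88), H2BC14 (13.02), H3C11 (12.72) and H4C3 (12.70), on the log2 scale of the deposited values. H1-4, a linker histone gene of the chromosome 6 cluster, had 13.32 in ovary round 2, 13.40 in ovary round 1, 13.33 in stomach round 2 and 13.29 in stomach round 1. These values lie within 0.11 of each other. H3C11 had 12.68 and 12.86 in ovary rounds 2 and 1, and 12.73 and 12.63 in stomach rounds 2 and 1. H4C3 had 12.57 and 12.83 in ovary, and 12.73 and 12.66 in stomach, in the same order. Both genes had their highest value on the round 1 ovary array. Values of different probe sets depend on their probes as well as on the transcripts, so they are not amounts of one transcript relative to another.

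A minimum signal of 5.64, the 30th percentile of all rows, was set for testing. It left 14547 genes, with 56 of the 59 members among them. The 3 members under it were H1-6, a testis linker histone (mean 5.34), the testis gene H2BC1 (5.601) and H4C7 (4.96). H2AC1, another testis gene, lay just above it, at 5.77 on all 4 arrays. H2BC1 had 6.10 in ovary round 2, 5.42 in ovary round 1, 5.54 in stomach round 2 and 5.35 in stomach round 1, so its value on 1 array was above the minimum. The testis H3 gene H3-4 (HIST3H3) was tested and had 6.85 and 6.98 in ovary rounds 2 and 1, against 6.90 and 7.03 in stomach. The round 2 value of H3-4 was lower by 0.13 at each site.

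**Figure D1:**
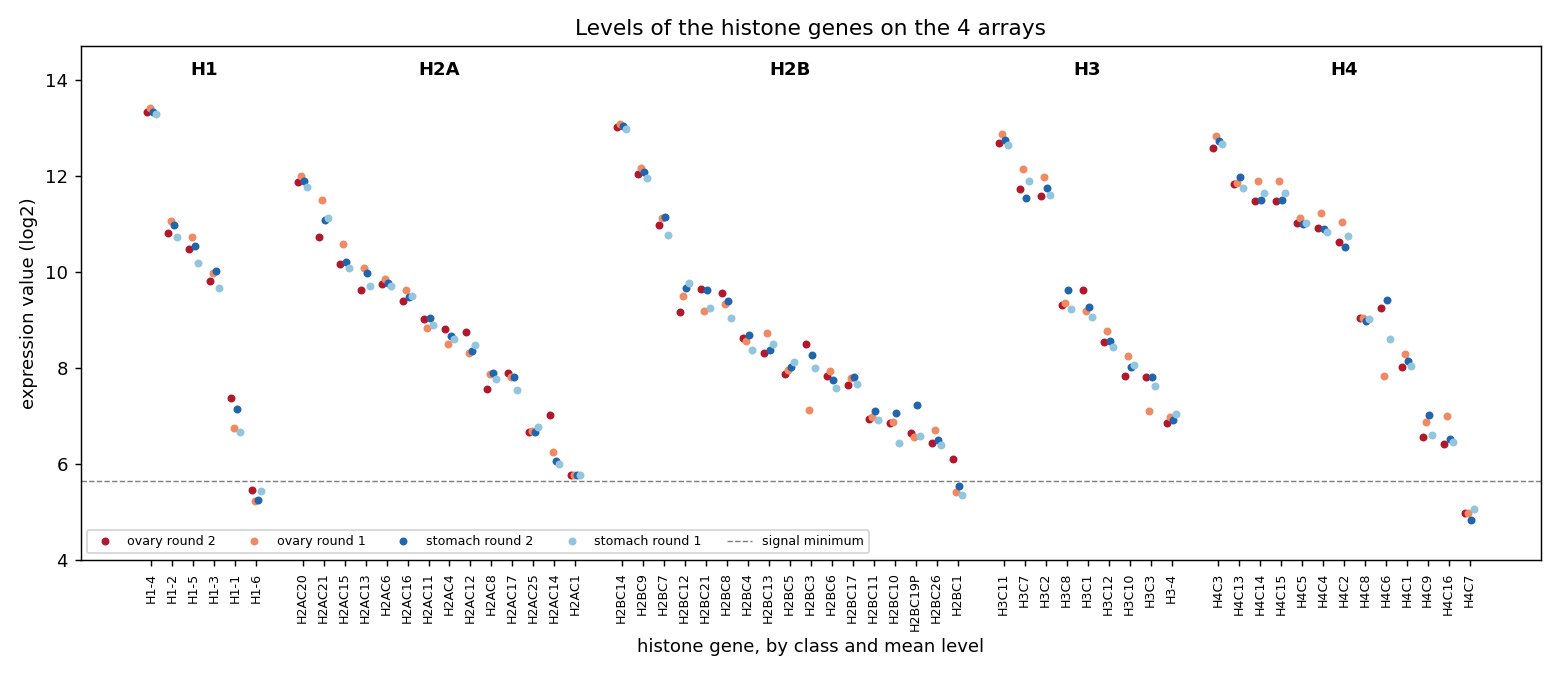
Deposited log2 expression value (vertical axis) of each of the 59 histone genes (horizontal axis, by class and falling mean), with 1 point per array and the signal minimum of 5.64 as a dashed line. Most genes hold their 4 points close together, while H4C6, H2BC3 and H2AC14 spread widely.

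By their medians, the histone genes had no direction between the sites that held in both rounds. They also had none between the rounds that held at both sites. Their median difference between the sites instead had opposite signs in the 2 rounds, which is called a crossing here. In round 2, 17 of the 56 tested members had a higher value in ovary than in stomach and 38 a lower one, with H2AC25 equal, where 51.9% of all tested genes were higher and 45.5% lower. In round 1, 43 of 56 had a higher value in ovary and 13 a lower one, where 46.2% and 51.4% of all tested genes did. The median difference, ovary minus stomach, was −0.047 in round 2 and 0.19 in round 1, on the log2 scale, beside 0.0076 and −0.0053 over all tested genes. The crossing rests on the round 2 labels. With the round 2 arrays exchanged, 38 of 56 members would be higher in ovary in round 2 (45.5% of all tested genes) with a median of 0.047, the sign of round 1. Both ovary arrays would then lie above both stomach arrays for 25 members (9.22% of all tested genes), in place of the 5 found with the labels as they stand.

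Seen by lineage, the round 2 values were lower than the round 1 values in ovary and higher in stomach for much of the family. In ovary 15 of 56 members were higher in round 2 and 40 lower (47% and 50.4% of all tested genes), with a median of −0.12. In stomach 40 of 56 were higher in round 2 and 16 lower (44.1% and 53.8% of all tested genes), with a median of 0.11. Both directions at once, lower in ovary and higher in stomach, held for 27 of 56 members, against 14.4% of all tested genes, and the reverse held for 2 members. These differences share arrays with the differences between sites and are the same 4 values read another way. The highest of the 4 values was that of the ovary round 2 array for 11 members (24.3% of all tested genes), ovary round 1 for 27 (25.9%), stomach round 2 for 13 (20.2%) and stomach round 1 for 4 (27%). The lowest was that of ovary round 2 for 17 members (23.6%), ovary round 1 for 8 (23.9%), stomach round 2 for 4 (27.6%) and stomach round 1 for 25 (20.5%).

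The epithelial markers moved the other way on one of these arrays. All 5 had their lowest value on the round 1 ovary array, and their median difference, ovary minus stomach, was −0.020 in round 2 and −0.27 in round 1. Their summed linear values were 22030.5 and 18066 in ovary rounds 2 and 1 and 22883 and 21695 in stomach. None passed limma's test, and their part in the values of the histone genes was not tested.

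With 1 array for each combination of site and round, none of these counts can be set against the spread between replicates. The widest of the single-array differences was 1.43, for H4C6 between rounds in ovary. In round 2, 2 members were at least 1.3-fold higher in ovary than in stomach and 3 were lower by that much (2.83% and 1.77% of all tested genes). In round 1 the counts were 6 and 3 (3.24% and 3.15%). In ovary 8 members were at least 1.3-fold higher in round 2 than in round 1 and 11 were lower (6.83% and 4.33%), and in stomach 6 and 0 (4.45% and 4.4%).

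**Figure D2:**
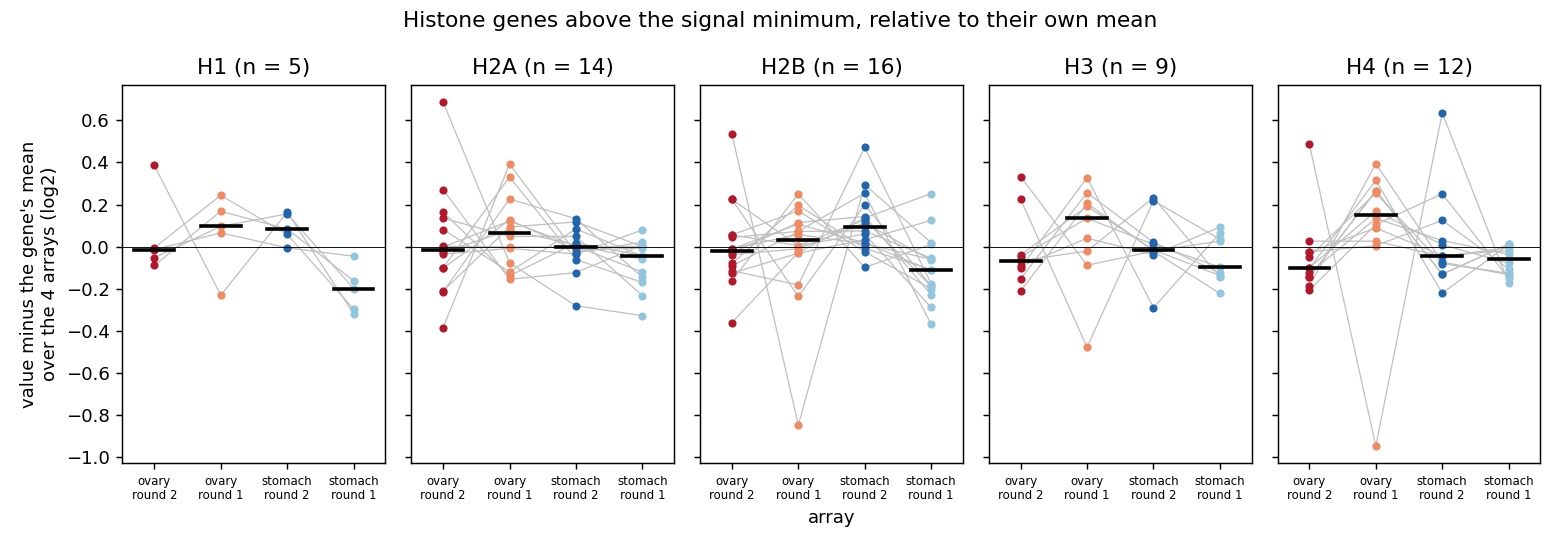
Each tested histone gene's value minus its own mean over the 4 arrays (vertical axis, log2), by class and array. Grey lines join the values of a gene, and black bars are class medians, which in 4 of the 5 classes are highest on the round 1 ovary array; in H2B they are highest on the round 2 stomach array.

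In each of the 5 classes the median difference between sites was below 0 in round 2 and above 0 in round 1. All 5 tested H1 genes were higher in ovary in round 1 and higher in round 2 in stomach. H1-5 had 10.47 in ovary round 2, 10.72 in ovary round 1, 10.54 in stomach round 2 and 10.18 in stomach round 1, which is 0.06 lower in ovary in round 2 and 0.54 higher in round 1. H1-3 had 9.81 and 9.96 in ovary rounds 2 and 1, and 10.02 and 9.67 in stomach. Its highest value was the round 2 stomach one, and its lowest the round 1 stomach one. H1-1 departed from the others, with 7.36 and 6.75 in ovary rounds 2 and 1 and 7.14 and 6.66 in stomach, so that round 2 was the higher at both sites.

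Among the H4 genes, 11 of 12 were higher in ovary in round 1 and 10 of 12 were lower in round 2 in ovary, with a median of −0.28 for the difference between rounds there. H4C4 had 10.91 and 11.21 in ovary rounds 2 and 1, against 10.88 and 10.83 in stomach, and stood high on the round 1 ovary array alone. H4C16, the only member on chromosome 12, had 6.41 and 6.99 in ovary rounds 2 and 1 and 6.52 and 6.46 in stomach, the same shape at a much lower signal. H4C8 was nearly flat, at 9.04 and 9.04 in ovary and 8.97 and 9.01 in stomach.

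The H3 genes showed it in 7 of 9 for ovary against stomach in round 1, and in 7 of 9 for lower values in ovary in round 2. H3C2 had 11.57 and 11.98 in ovary rounds 2 and 1, against 11.74 and 11.60 in stomach. H3C3 ran the other way, with 7.81 and 7.11 in ovary and 7.80 and 7.62 in stomach. Its round 1 ovary value was its lowest.

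The H2A genes were divided. In ovary 9 of 14 were higher than in stomach in round 1, and 6 of 14 were higher in round 2 than in round 1, with a median difference between rounds of −0.066 in ovary and 0.064 in stomach. H2AC15 had 10.15 and 10.59 in ovary rounds 2 and 1 and 10.19 and 10.08 in stomach. H2AC4, with 8.80 and 8.50 in ovary and 8.65 and 8.59 in stomach, was lowest where H2AC15 was highest.

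Of the H2B genes 11 of 16 were higher in ovary in round 1 and 13 of 16 were higher in round 2 in stomach, where their median difference was 0.18. H2BC7 had 10.97 and 11.11 in ovary rounds 2 and 1, and 11.14 and 10.77 in stomach. Its low value on the round 1 stomach array stood out more than its high one on the round 1 ovary array. In H2BC9, at 12.04 and 12.16 in ovary and 12.07 and 11.94 in stomach, the round 1 stomach value was also the lowest, the highest was the round 1 ovary one, and the range was narrow.

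The counts were also taken by signal. Of the 28 members with a mean above 9.15, the median of the tested members, 26 were higher in ovary in round 1 and 3 were higher in round 2 in ovary. Of the 3405 tested genes above that value, 47.8% and 56.9% were. Among the 28 other members the counts were 17 and 12 (60.7% and 42.9%), against 45.6% and 43.9% of the 11142 other tested genes. For the rounds in ovary, these members were thus near the share of all genes at their level. Sums of squares over the 56 members were divided as 20.5% between sites, 51.6% between rounds and 27.9% for the interaction, against 26.6%, 51.5% and 21.9% over all tested genes.

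**Figure D3:**
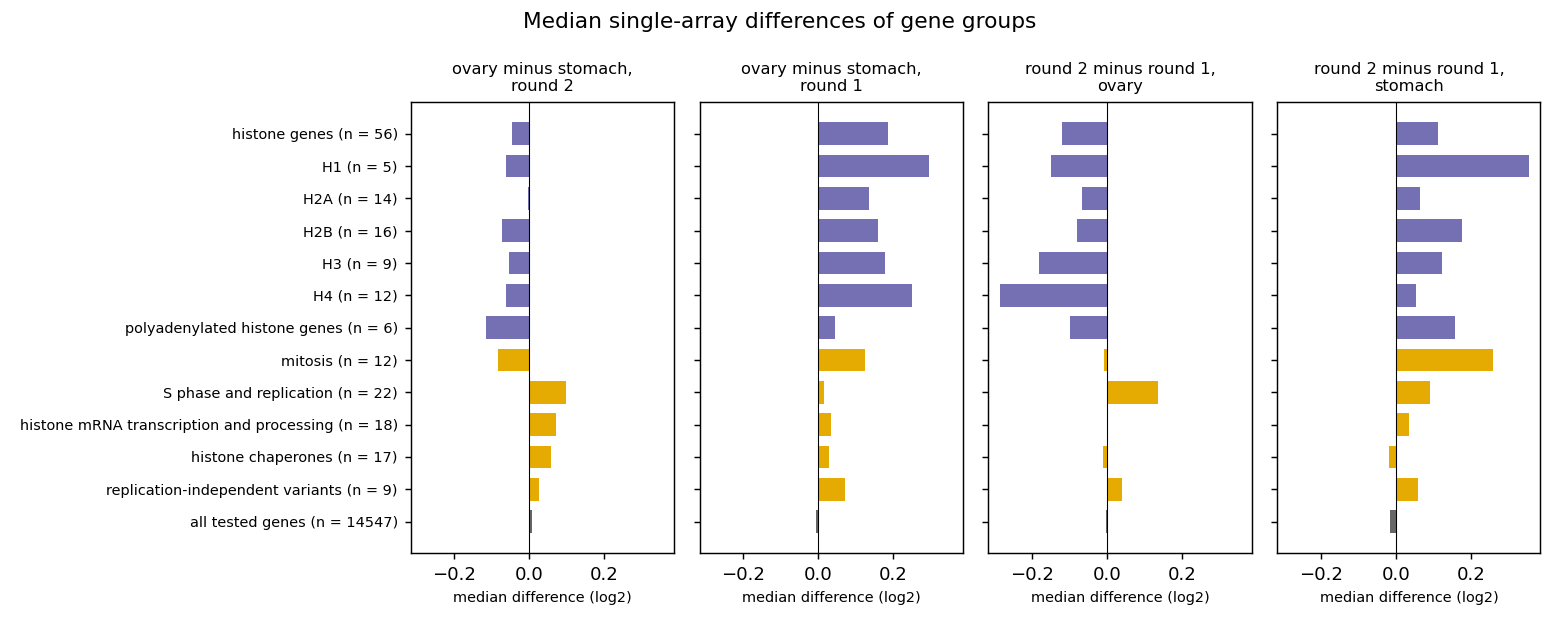
Median single-array difference (horizontal axis, log2) of the tested histone genes, their classes, 6 polyadenylated histone genes and other gene lists, with all tested genes at the bottom; n is the number of tested genes. In round 2 the histone genes have a median of −0.047 for ovary minus stomach and in round 1 one of 0.19, and the mitosis list has medians of the same signs.

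For the comparison of sites, in which both rounds are averaged, no gene was called. Limma's moderated test with Benjamini-Hochberg adjustment gave 0 genes of 14547 at an adjusted p of 0.05 (0% of all tested genes), and 378 at the same level without adjustment (2.6%), 1 of them a histone gene, H2BC12. The median member was higher by 0.056 in ovary, beside 0.0016 over all tested genes. With the rounds averaged, 39 of 56 members were higher in ovary and 17 lower, where 50.6% of all tested genes were higher. In round 2 alone, 38 of the members were lower in ovary. Both ovary arrays were above both stomach arrays for 5 members and below them for 2, against 13.4% and 11.2% of all tested genes.

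H2BC12, an H2B gene also known for polyadenylated transcripts, had the lowest ovary values relative to stomach by the smaller of its 2 single-array differences, −0.50 in round 2 and −0.28 in round 1. It had 9.16 in ovary round 2 and 9.49 in ovary round 1, against 9.66 in stomach round 2 and 9.77 in stomach round 1, and the sites did not overlap. The mean was 9.33 ± 0.235 in ovary and 9.72 ± 0.0818 in stomach (SD, n = 2 each), a difference of −0.39 with a standard error of 0.144 (limma adjusted p = 1). H2BC5 was lower in ovary by 0.16 in each round, at 7.86 and 7.96 in ovary rounds 2 and 1 against 8.02 and 8.11 in stomach (adjusted p = 1 by limma). H4C6, H3-4, H2AC11 and the pseudogene H2BC19P were also lower in ovary in both rounds, with single-array differences between −0.77 and −0.0031. For H2BC19P nearly all of it lay in round 2, −0.59 against −0.01 in round 1.

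H2AC14 was the member farthest above stomach in ovary. It had 7.02 in ovary round 2 and 6.25 in ovary round 1, against 6.05 in stomach round 2 and 6.001 in stomach round 1. The sites did not overlap, but the 2 ovary values lay 0.76 apart, farther than ovary round 1 from either stomach value. The mean difference was 0.61 with a standard error of 0.265 (limma adjusted p = 1), or 1.52-fold. H3C7, at 11.72 and 12.15 in ovary rounds 2 and 1 against 11.53 and 11.88 in stomach, was higher by 0.19 and 0.26 in ovary in rounds 2 and 1. H4C2, at 10.62 and 11.04 against 10.51 and 10.74 in the same order, was higher by 0.12 and 0.31. In both genes the arrays of the sites overlapped, and the rounds differed by more than the sites.

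H2BC8, H3C1 and H2AC17 were higher in ovary in each round as well. H2BC8 had 9.55 and 9.33 in ovary rounds 2 and 1, against 9.38 and 9.03 in stomach. H3C1 had 9.61 and 9.19 in ovary, against 9.26 and 9.05 in stomach. H2AC17 had 7.90 and 7.81 in ovary, against 7.81 and 7.53 in stomach, and of these 3 genes was the one whose sites did not overlap, the lower ovary value standing barely above the higher stomach one. Apart from H2AC14 and H2AC17, the members with no overlap and ovary above were H2BC6, H4C4 and H4C8.

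For the comparison of rounds, limma again called 0 genes of 14547 (0%), with 2178 at 0.05 without adjustment (15%), 5 of them histone genes: H1-1, H2BC21, H2BC3, H3C7 and H4C6. The median member differed by −0.012, round 2 minus round 1 (0.012 once each array was centred on its median), beside −0.019 over all tested genes. Both round 2 arrays were above both round 1 arrays for 11 members and below for 11, against 22.2% and 26.8% of all tested genes. The smallest adjusted p of a member was 0.287.

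H4C6 (HIST1H4F), an H4 gene of the chromosome 6 cluster, had the widest difference between rounds. It had 9.25 in ovary and 9.40 in stomach in round 2, against 7.82 in ovary and 8.59 in stomach in round 1. The rounds did not overlap, and the round 1 values differed from each other more than the round 2 values did. The means were 9.33 ± 0.107 in round 2 and 8.21 ± 0.547 in round 1 (SD, n = 2 each), a difference of 1.12 with a standard error of 0.267 (limma adjusted p = 0.287), or 2.17-fold. Among the other H4 genes with 1 direction at both sites, H4C2 had the widest difference, of the opposite sign.

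H2BC21 (HIST2H2BE), an H2B gene of the chromosome 1 cluster with polyadenylated transcripts, differed more evenly. It had 9.64 in ovary and 9.62 in stomach in round 2, against 9.18 and 9.23 in round 1. The rounds were clearly apart and the sites nearly equal, with means of 9.63 ± 0.0184 in round 2 and 9.21 ± 0.0359 in round 1 (SD, n = 2 each) and a difference of 0.42 with a standard error of 0.0704 (limma adjusted p = 0.287). H1-1 was higher in round 2 by 0.62 in ovary and 0.48 in stomach (limma adjusted p = 0.287). H2BC3 had 8.50 in ovary and 8.26 in stomach in round 2, against 7.12 and 7.99 in round 1 (limma adjusted p = 0.327), and most of its difference came from the round 1 ovary array. H2BC8 and H3C1, higher in ovary in each round, were also higher in round 2 at each site.

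Lower in round 2 at both sites were H3C7, by 0.43 in ovary and 0.35 in stomach, and H4C2, by 0.42 and 0.23. H3C7 had 11.72 in ovary and 11.53 in stomach in round 2, against 12.15 and 11.88 in round 1, and the rounds did not overlap (limma adjusted p = 0.301). H4C14 and H4C15, neighbouring H4 genes of the chromosome 1 cluster, had the same 4 values, 11.48 in ovary and 11.49 in stomach in round 2 against 11.89 and 11.63 in round 1, and so count as 1 measurement (limma adjusted p = 0.337). Their promoter windows were also identical, in 250 of 250 bases. H2BC12 was lower in round 2 by 0.33 in ovary and 0.12 in stomach, with overlap between the rounds.

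**Figure D4:**
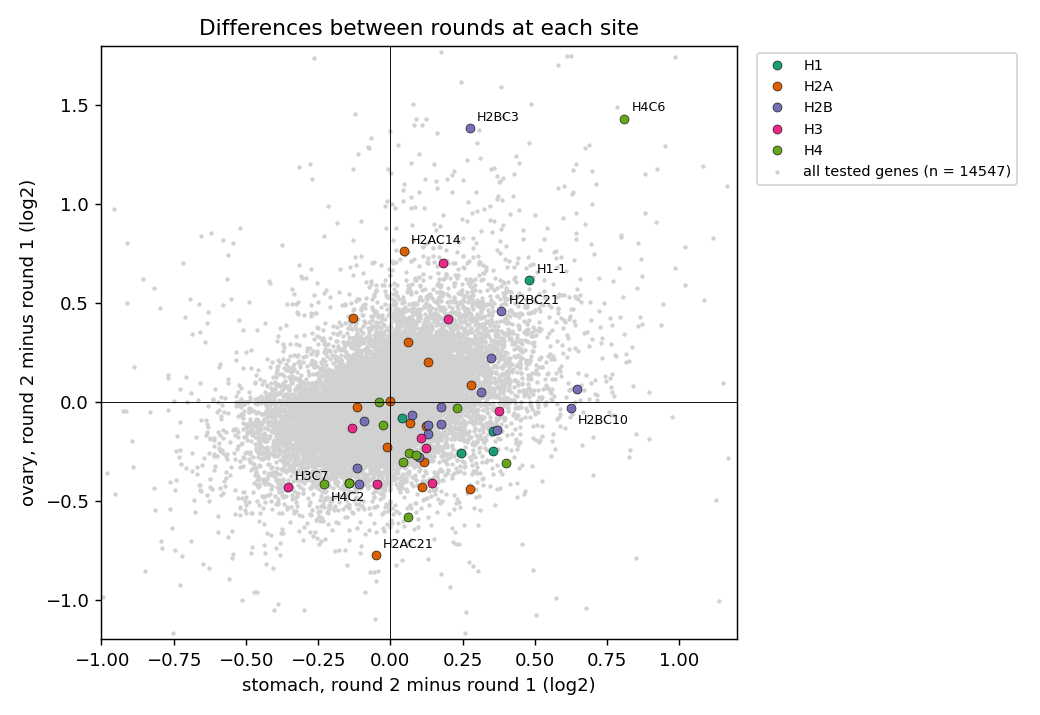
Round 2 minus round 1 in stomach (horizontal axis, log2) against the same difference in ovary (vertical axis, log2), for tested histone genes coloured by class and all 14547 tested genes in grey, 53 of which lie outside the axes. The lower right section holds 27 histone genes, and H4C6 is the histone gene farthest to the upper right.

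The interaction, the difference between rounds in ovary minus that in stomach, had a median of −0.25 over the members, beside 0.025 over all tested genes. It was below 0 for 43 of 56 members, and for 6575 of all 14547 tested genes. Limma called 0 genes of 14547 for it (0%), with 194 at 0.05 without adjustment (1.33%), of which 3 were histone genes: H1-2, H2AC13 and H4C9. With 1 array per combination the interaction was fitted as 2 arrays against 2, so the site and round differences of a gene count as its error. H2AC21 had the lowest interaction, −0.73, from 10.71 and 11.49 in ovary rounds 2 and 1 and 11.07 and 11.12 in stomach. H2AC13 had 9.63 and 10.07 in ovary and 9.97 and 9.70 in stomach, an even crossing with an interaction of −0.72. H4C9 had 6.55 and 6.86 in ovary rounds 2 and 1 and 7.01 and 6.61 in stomach, an interaction of −0.71. H2BC10, at −0.65, had 6.84 and 6.87 in ovary and 7.05 and 6.43 in stomach, so its interaction came from the stomach arrays.

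The opposite sign was seen in H2BC3 (1.11), H2AC14 (0.72), H4C6 (0.62) and H2AC12 (0.56). Of these, H2AC12 was higher in round 2 in ovary and lower in stomach, with 8.73 and 8.31 in ovary rounds 2 and 1 and 8.34 and 8.47 in stomach. The other 3 were higher in round 2 at both sites, with the wider difference in ovary. No adjusted p for the interaction of a member was under 1.

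The 6 histone genes known for polyadenylated transcripts had no common direction. They are H1-2, H2AC6, H2BC4, H2BC5, H2BC12 and H2BC21. In round 2, 1 of 6 was higher in ovary, and in round 1, 3 of 6 were, with medians of −0.12 and 0.044 in rounds 2 and 1. H1-2 had 10.80 and 11.06 in ovary rounds 2 and 1 and 10.97 and 10.73 in stomach, a crossing, as in H1-3, H1-4 and H1-5. H2AC6 had 9.74 and 9.84 in ovary and 9.77 and 9.71 in stomach. H2BC4 had 8.61 and 8.56 in ovary and 8.68 and 8.37 in stomach. H2BC5 and H2BC12 were lower in ovary, as given above, and H2BC21 was higher in round 2. Among the 50 tested members outside this group, 16 were higher in ovary in round 2 and 40 in round 1.

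By gene cluster, HIST1 on chromosome 6 held 46 of the 56 tested members, so its counts are largely those of the family. Of these 46, 16 were higher in ovary in round 2 and 37 in round 1. Of the 6 members of HIST2 on chromosome 1, 1 was higher in ovary in round 2 and 4 in round 1. Of the 3 members of HIST3, also on chromosome 1, 0 were higher in ovary in round 2 and 1 in round 1. Head-to-head neighbours were compared by the sign of their differences. Among members with a promoter window, 8 tested H2A and H2B pairs lie this way with starts at most 300 bases apart. Members without a window, such as H2AC12, are not among them. The difference had the same sign in 3 of 8 pairs for the sites in round 2 and 5 of 8 in round 1. For the rounds it did in 2 of 8 pairs in ovary and 6 of 8 in stomach. H2AC25 was equal at the sites in round 2, so its pair with H2BC26 was counted as not agreeing there. Shares for other pairs of genes are not given here, and whether these pairs differ from them was not tested. H2AC14 and H2BC14 are a head-to-head pair. H2BC14 had 13.01 and 13.08 in ovary rounds 2 and 1 and 13.03 and 12.96 in stomach. It was 0.02 lower in ovary in round 2, where H2AC14, at a much lower mean of 6.33, was 0.97 higher.

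Rows that name several histone genes were not members, and their values bear on how well single members are measured. There were 20 such rows with 17 distinct sets of values, and 14 of them named genes of a single class and were above the minimum, with 11 distinct sets. Of these 11, 10 were higher in ovary in round 2 and 7 in round 1, and their median interaction was −0.14. The direction between sites in round 2 was thus not that of the members, and the direction in round 1 was. Between rounds, 4 of the 11 were higher in round 2 in ovary and 5 in stomach, with medians of −0.15 and −0.017. The lower values in ovary were thus seen here as in the members, and the higher values in stomach were not. A row shared by H4C11 and H4C12 had 11.20 and 11.58 in ovary rounds 2 and 1 against 11.10 and 11.13 in stomach. A row shared by H4C14 and H4C15 had 10.16 and 10.18 in ovary rounds 2 and 1 against 10.75 and 10.59 in stomach, 0.59 and 0.41 lower in ovary. The row of each gene alone was 0.014 lower in ovary in round 2 and 0.25 higher in round 1, so probe sets for the same pair of genes disagreed.

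Genes that act with the histones were read from lists chosen for their roles. Of the replication-independent variants, which are made outside S phase as well, 9 of 12 were measured, and none passed the test. H2AZ1, which replaces H2A at promoters, had 11.04 and 10.92 in ovary rounds 2 and 1 and 11.07 and 10.91 in stomach. H3-3B, a gene of the H3.3 variant, had 10.12 and 9.74 in ovary rounds 2 and 1 and 9.90 and 9.64 in stomach, higher in round 2 at both sites (limma adjusted p = 0.299). H3-5, which resembles it, had 10.08 and 9.73 in ovary and 9.96 and 9.65 in stomach. Whether the rows of H3-3B and H3-5 measure separate transcripts was not tested. The linker variant H1-10 had 7.99 and 8.17 in ovary and 7.85 and 8.09 in stomach. The median interaction of the variants was 0.061.

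Of 19 genes for transcription and 3′ end processing of histone mRNA, 18 were measured and none passed the test for site, round or interaction. NPAT had 9.42 and 9.35 in ovary rounds 2 and 1 and 9.70 and 9.31 in stomach, with its highest value on the round 2 stomach array. SLBP had 8.90 and 8.90 in ovary and 8.79 and 8.89 in stomach. CASP8AP2, which works with NPAT at histone loci, was 0.24 higher in round 2 at both sites (limma adjusted p = 0.296), and TUT7, an enzyme that adds uridines to histone mRNA, was 0.42 higher in ovary and 0.18 in stomach (0.298). TUT4, another such enzyme, was 0.33 higher in ovary in round 2 and 0.26 in round 1 (limma adjusted p = 1).

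All 17 genes for histone chaperones and their partners were measured, and none passed the test. CHAF1B, a subunit of the assembly factor CAF-1, had 8.64 and 8.91 in ovary rounds 2 and 1 and 8.64 and 8.89 in stomach, lower in round 2 by nearly the same amount at both sites (limma adjusted p = 0.287). HAT1, which acetylates new H4, was higher in round 2 by 0.30 in ovary and 0.27 in stomach (limma adjusted p = 0.287). ASF1B, a chaperone of H3 and H4, was 0.30 and 0.20 higher in round 2 in ovary and stomach (limma adjusted p = 0.316). HIRA, which deposits H3.3, was 0.37 higher in ovary in round 2 and 0.10 in round 1 (limma adjusted p = 1).

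Of 23 genes of S phase and DNA replication 22 were measured, and none passed the test. Higher in ovary were 16 of 22 in round 2 and 12 of 22 in round 1, with a median interaction of 0.091, so this list did not show the crossing. CCNE2, a cyclin of S phase entry, was higher in round 2 by 1.298 in ovary and 0.69 in stomach, and CDC6, a replication licensing factor, by 0.48 and 0.44 (limma adjusted p = 0.287 for each). The 12 genes of mitosis were all measured and none passed the test, but 2 were higher in ovary in round 2, 10 in round 1, and in stomach 10 were higher in round 2 than in round 1, with a median interaction of −0.24. TOP2A, a topoisomerase of dividing cells, had 10.92 and 10.89 in ovary rounds 2 and 1 and 11.07 and 10.74 in stomach. CCNB2, a mitotic cyclin, had 10.75 and 10.92 in ovary and 10.93 and 10.58 in stomach, a crossing like that of the histone genes.

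The summed linear values of the mitosis genes were 14035 and 14264 in ovary rounds 2 and 1 and 15035 and 12936.5 in stomach, lowest on the round 1 stomach array as in 25 histone members. The endothelial markers, with 2 of 5 under the signal minimum, summed to 348 in ovary and 385 in stomach in round 2, against 285 and 289 in round 1. That difference was one of ESAM, at 7.39 in ovary and 7.67 in stomach in round 2 and 6.56 on each round 1 array, while CDH5 and KDR were lower in round 2 at both sites, VWF was lower in stomach, and PECAM1 stayed between 4.85 and 4.90. The part of these genes in the results was not tested.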

How the data were processed

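Biotin-labelled RNA of cultured cells was measured on Affymetrix arrays, as the labels' protocols state. The authors deposited log2 expression values, 1 row per probe set and 1 column per array. The submitters' processing notes name Affymetrix Expression Console; background correction and normalization are not stated in what was used here, and a scaling between arrays would hide a shift common to all transcripts.

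Groups were read from the sample titles. Of 33297 rows, 19460 carry 1 gene symbol in GEO's platform annotation, 1754 several and 12083 none; symbols were updated through a RefSeq gene table (GRCh38.p14), in which 19429 of the single-symbol rows were found. The highest-mean probe set stood for a gene, and tests were limited to genes with a mean above 5.64, the 30th percentile over rows, leaving out 3870.

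Differences were fitted on all 4 arrays with lmFit and eBayes of limma 3.58.1 (R 4.3.3), two-sided, with Benjamini-Hochberg adjustment over 14547 genes and a threshold of 0.05, for ovary minus stomach, round 2 minus round 1, and the interaction. Each fit had 2 residual degrees of freedom. Counts and medians over members have no test. The 1.3-fold size used for counts was set after values had been seen. The replicate number is the implantation round, which the labels give for both sites. Deviations from the site means correlated at 0.411 across tested genes between the arrays of a round (2 pairs), and fits with the block were run as an alternative.

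The members, gene lists and naming rule were chosen with earlier results of these data known. Members named are the 6 highest and 6 lowest per comparison by the smaller of the single-array differences of equal sign, the highest and lowest mean of each class, the 4 largest interactions per direction, and the polyadenylated and testis lists; other members were chosen as examples of their class after their values were seen. Of the other lists, genes with the largest mean differences were named, with NPAT and SLBP always named. Some listed genes (among them H3-3A, CENPA and POU2F1) had no single-symbol row and were not analysed here.

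Simulated data had the means of these 14547 genes, 200 changed genes and noise independent between arrays, drawn from the variance prior of each fit. Limma recovered 29.95% of 2-fold and 93.55% of 4-fold changes between sites there. It recovered 74.35% and 96.15% between rounds, and 0% and 92.2% for the interaction. In the measured values the other factor lies in the residual, which the simulation left out. The largest measured difference between rounds was 2.17 on the log2 scale, and 0 genes were called. The rates are therefore not the power of the tests on these arrays. Promoter motifs were counted in Python 3.11.15, and figures drawn with matplotlib 3.10.9.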

Additional observations from a re-analysis of the deposited data

Results flagged for a closer look

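The direction of the histone genes differed between the 2 lineages and between the 2 rounds. The median over the 56 tested members of round 2 minus round 1 was −0.12 in ovary and 0.11 in stomach. The median of ovary minus stomach was −0.047 in round 2 and 0.19 in round 1. These are the same 4 arrays read in 2 ways. With the round 2 arrays exchanged, whose labels contradict themselves in part, the median of ovary minus stomach in round 2 would be 0.047, the same sign as in round 1, and those of round 2 minus round 1 would be −0.071 in ovary and 0.049 in stomach. With 1 array per combination, the difference between the lineages, or between the rounds, was not tested for the family, and the fit for single genes called no member for the interaction.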

How the results depend on the processing

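Limma called no gene and no member for site, round or interaction, at an adjusted p of 0.05, under these alternatives: quantile normalization, centring on array medians, the mean of a gene's probe sets, no minimum or one at the 50th percentile, another prior (trended or robust), and, for site and round alone, the replicate block and each array left out. With the replicate block the smallest adjusted p of a member was 0.768 for site and 0.208 for round, with 0 calls each, so the pairing changed no call. The interaction needs all 4 arrays and was not refitted without one or with the block. The median over members, ovary minus stomach, ranged from 0.0025 to 0.12 with 1 array left out, and that of round 2 minus round 1 from −0.084 to 0.084. With 1 array fewer, groups overlap less by construction: the members with ovary above numbered 8 to 30 and below 4 to 17. Those with round 2 above numbered 12 to 32 and below 12 to 29. The shares of all tested genes with 1 array left out are not given here. Whether the members differ from other genes in these counts was not tested. Of 40 named differences, 11 took the opposite sign without 1 array. Ovary minus stomach then ran from −0.050 to 0.21 for H1-2, −0.14 to 0.062 for H2AC11, −0.00063 to 0.105 for H2AC6, −0.62 to 0.027 for H2BC19P, −0.24 to 0.22 for H2BC21, −0.097 to 0.22 for H2BC4, −0.12 to 0.013 for H3-4 and −1.18 to 0.25 for H4C6. Round 2 minus round 1 ran from −0.17 to 0.16 for H1-2, −0.088 to 0.051 for H2AC6 and −0.47 to 0.024 for H2BC12. The turn came without the round 1 ovary array for H4C6 and H2AC6, without the round 2 ovary array for H2BC12, and without the round 2 stomach array for H2BC19P. With centring, round 2 minus round 1 was 0.018 for H1-2 and 0.0051 for H2AC6. The cause was not tested. Adding rows shared by several histone genes gave a round 2 median, ovary minus stomach, of −0.019 over members and rows. Counting H4C14 and H4C15 once, an alternative chosen after seeing the data, gave −0.055. Exchanging the round 2 arrays of ovary and stomach, also chosen after seeing the data, gave 38 members higher in ovary in round 2, 25 with both ovary arrays above, 23 higher in round 2 in ovary, and 16 lower in ovary and higher in stomach in round 2; the fit of the sites is then that of the interaction, with 0 calls.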

Other observations

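Several histone genes were nearly constant over all 4 arrays. H2AC1 ranged over 0.0031 on the log2 scale, H4C8 over 0.07, H1-4 over 0.11 and H2BC14 over 0.12. H2AC1 lay close to the signal minimum, while H1-4 and H2BC14 had the highest means of their classes. The widest ranges were those of H4C6 (1.58), H2BC3 (1.38) and H2AC14 (1.01).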
